A study of Homo sapiens with 2 samples.

Results

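The glycosyltransferases and carbohydrate sulfotransferases of the Golgi were measured in CL1-0 cells that expressed an FDFT1 vector and in CL1-0 cells with a control vector. CL1-0 is a cell line from a human lung adenocarcinoma, and FDFT1 encodes squalene synthase, the enzyme that commits the mevalonate pathway to sterols. Both groups were stably transduced and selected with puromycin, and the labels do not say whether either line is a pool or a clone. Each group had 1 Affymetrix expression array, so no difference here has a p-value or a replicate error. The members are all genes whose probe sets carry a single symbol of the ST3GAL, ST6GAL, ST6GALNAC, ST8SIA, CHST, B3GNT, B3GALT, B4GALT, GALNT, FUT, MGAT or GCNT series, plus A4GALT. They came to 102 of 19775 named genes, on 229 probe sets, and 7 of the 102 are antisense, divergent or pseudogene transcripts rather than enzymes.

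These enzymes build the sugar chains of glycoproteins, glycolipids and proteoglycans by moving a sugar or a sulfate from an activated donor onto a growing chain in the Golgi. GALNT enzymes start mucin-type O-glycans, MGAT enzymes branch N-glycans, B3GNT, B3GALT and B4GALT enzymes extend the chains, and FUT enzymes and sialyltransferases cap them. CHST enzymes sulfate chondroitin, dermatan, keratan and other chains. In lung and other epithelial cells, these caps form blood group, Lewis and sialylated epitopes and the mucin coat.

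Few of these transcripts differed by much between the arrays. A member was measured if the higher of its centred signals reached a floor of 12.2, the median of all signals, and each gene is represented by the measured probe set with the highest mean log2 signal, called its brightest. A probe set is the group of short array probes that reads 1 transcript or several, and MAS5, the array maker's algorithm, condenses it to 1 signal on a linear scale. Signals are given as deposited, whereas differences and folds are centred so that the median probe set above the floor does not differ. By that rule 66 of 102 members were measured (64.7%, against 65.6% of all named genes). At least 2-fold higher signal with FDFT1 was seen for 1 member, ST3GAL3, and at least 2-fold lower signal for 2 members, CHST5 and A4GALT. Over all 12968 measured genes, 0.571% were at least 2-fold higher and 0.578% at least 2-fold lower. At 1.5-fold, 6 members were higher and 6 lower (9.09% each), against 3.91% and 3.28% of all measured genes. The median log2 difference of the members, FDFT1 minus control, was 9.07e-05, as 33 lay above 0 and 33 below. For all measured genes the median was -0.0013, with 49.8% above 0. In 12 measured members 1 of the 2 signals was under the floor, so their folds are lower bounds. In bulk RNA, fewer cells expressing a gene and less RNA per cell cannot be told apart.

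**Figure D1:**
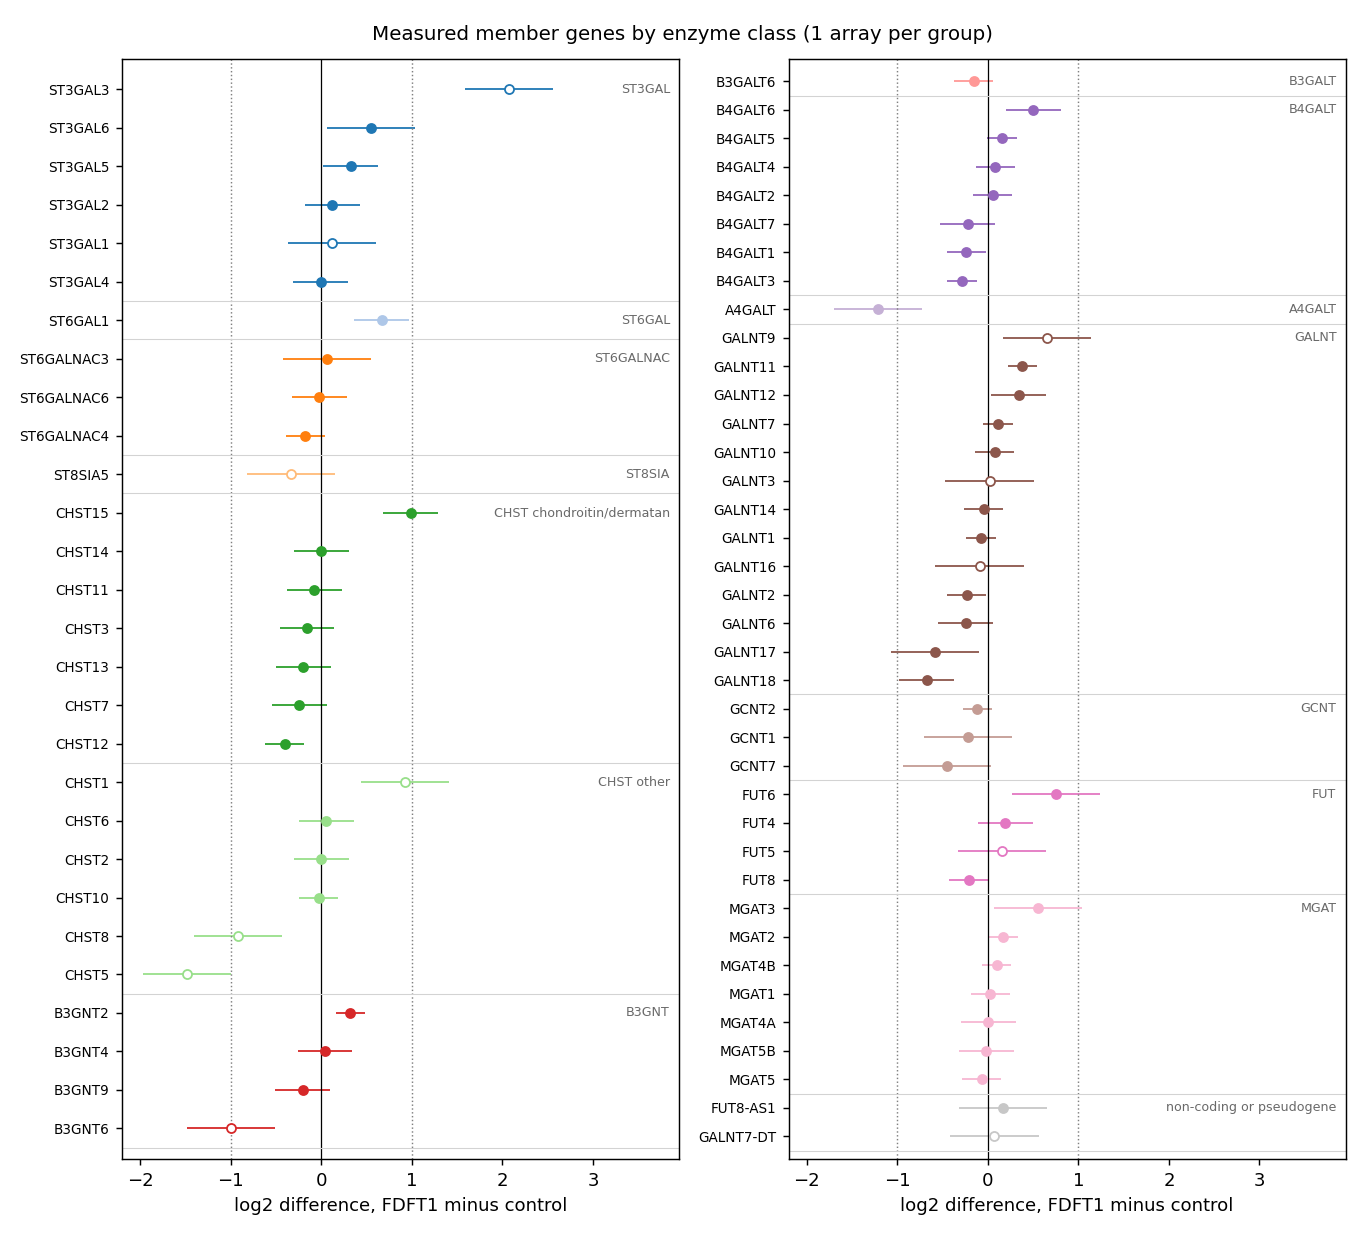
Centred log2 difference (FDFT1 minus control) of each of the 66 measured members, by enzyme class, from 1 array per group. Bars are the probe-set error either side of the value, open points have 1 signal under the floor, dotted lines mark 2-fold, and only ST3GAL3, A4GALT and CHST5 lie beyond them.

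The differences past 2-fold belonged to dim probe sets. A probe-set error was estimated as the SD of the disagreement between the 2 brightest probe sets of a gene, over all genes with such a pair in the same signal range, divided by the square root of 2. On the log2 scale it was 0.49 where the mean log2 signal lay under 5 and 0.30 where it lay between 5 and 7. It was 0.22 between 7 and 9, and 0.16 between 9 and 11. It includes differences between transcripts of a gene and leaves out differences between cultures. It was taken from floored differences of measured probe sets, so probe sets under the floor on both arrays did not enter. The 0.49 of the dim range can therefore be too small. All 3 members past 2-fold were among the 21 with a mean log2 signal under 5. In that range 1.998% of all genes were at least 2-fold higher and 2.07% at least 2-fold lower. At 1.5-fold, 4 of these 21 members were higher and 5 lower (19.0% and 23.8%), against 11.8% and 9.08% of all genes there. Between 5 and 7, 2 of 23 members were higher and 1 lower (8.70% and 4.35%), against 3.40% and 4.34% of all genes there. None of the 22 members with a mean log2 signal of 7 or more differed by 1.5-fold. In that range 1.01% of all genes were at least 1.5-fold higher and 0.579% at least 1.5-fold lower. Differences beyond 2 errors were found for 8 members (12.1%, against 7.25% of all measured genes), namely ST3GAL3, CHST15, ST6GAL1 and GALNT11 above 0 and CHST5, A4GALT, B3GNT6 and GALNT18 below.

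**Figure D2:**
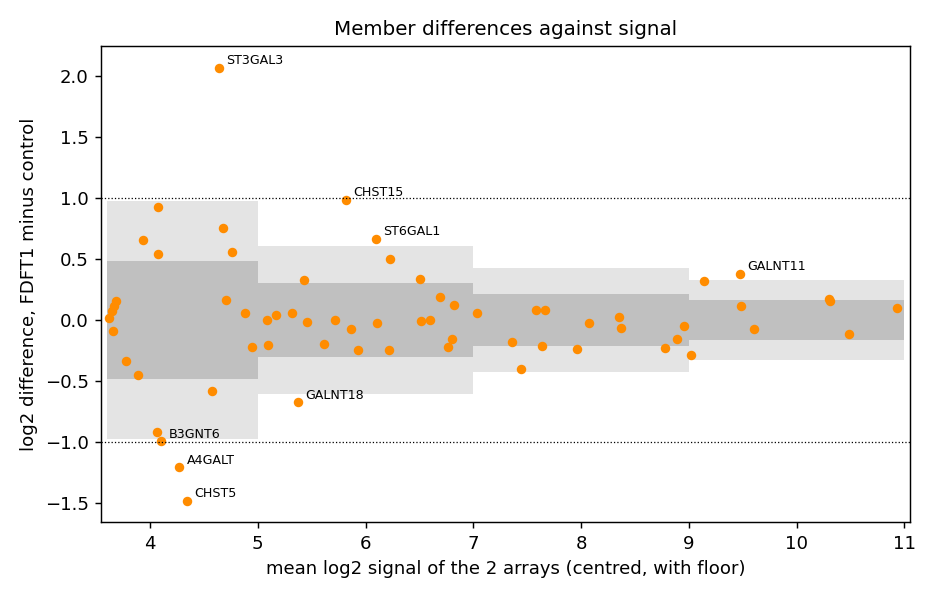
Centred log2 difference of each measured member (FDFT1 minus control) against its mean log2 signal over the 2 arrays. The darker band is 1 probe-set error and the lighter band 2 errors, and the 8 named members lie outside both.

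Promoters are shown for the 2 members past 2-fold that have an entry among RefSeq promoter sequences of build GRCh38.p14, ST3GAL3 and A4GALT, and for the 2 members whose promoter holds the Golgi apparatus stress response element. That element, bound by TFE3 when the load on the Golgi rises, was searched as ACGTGGC. Each line gives the 250 bases before the gene's start, 5′ to 3′ on the gene's strand. Capitals mark this element or a GC box, GGGCGG, the binding sequence of Sp1, each on either strand; neighbouring GC boxes can overlap.
ST3GAL3 (chr1:43707286-43707535, + strand): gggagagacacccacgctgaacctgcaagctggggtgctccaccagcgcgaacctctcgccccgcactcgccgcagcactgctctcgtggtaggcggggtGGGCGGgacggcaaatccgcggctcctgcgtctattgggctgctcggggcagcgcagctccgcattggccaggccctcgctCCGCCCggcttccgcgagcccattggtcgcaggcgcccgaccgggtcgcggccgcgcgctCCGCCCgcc
A4GALT (chr22:42720871-42721120, - strand): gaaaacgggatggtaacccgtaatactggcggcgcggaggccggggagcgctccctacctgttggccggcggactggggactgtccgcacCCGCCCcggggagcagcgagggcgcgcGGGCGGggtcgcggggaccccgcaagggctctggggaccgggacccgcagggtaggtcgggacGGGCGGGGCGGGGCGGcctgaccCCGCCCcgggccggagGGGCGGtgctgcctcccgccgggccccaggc
B3GALT6 (chr1:1231987-1232236, + strand): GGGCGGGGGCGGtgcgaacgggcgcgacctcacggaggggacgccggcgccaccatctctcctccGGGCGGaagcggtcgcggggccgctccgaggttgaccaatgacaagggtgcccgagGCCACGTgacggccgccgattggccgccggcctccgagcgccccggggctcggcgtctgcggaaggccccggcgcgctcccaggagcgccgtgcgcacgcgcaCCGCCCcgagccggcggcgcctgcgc
B4GALT2 (chr1:43979687-43979936, + strand): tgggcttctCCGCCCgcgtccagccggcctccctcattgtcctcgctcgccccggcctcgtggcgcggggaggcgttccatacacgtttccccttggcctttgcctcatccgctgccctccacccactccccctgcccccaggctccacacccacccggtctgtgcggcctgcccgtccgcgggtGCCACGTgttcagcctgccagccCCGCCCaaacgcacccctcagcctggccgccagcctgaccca

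Of the 102 members, 77 had a promoter in that table. The Golgi stress element was found in 2 of these (2.597%, against 2.85% of all 27305 promoters), B3GALT6 and B4GALT2, whose transcripts were at -0.15 and 0.06. TCACCCCAC, from the sterol regulatory element of the LDL receptor gene, was in 2 of the 77 member promoters (2.597%, against 0.348% of all promoters). These were CHST3 at -0.16 and MGAT4B at 0.10, so the member share rests on 2 genes. GC boxes were in 66.2% of the member promoters and 42.3% of all promoters. Measured members carried them in 36 of 50 promoters and members below the floor in 15 of 27, with median GC contents of 71.8% and 60.4%. The median GC content of all promoters was 58%. Among measured members the median log2 difference was 9.07e-05 with a GC box (36 genes) and -0.02 without (14 genes). The ST3GAL3 promoter had 3 GC boxes and the A4GALT promoter 7.

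**Figure D3:**
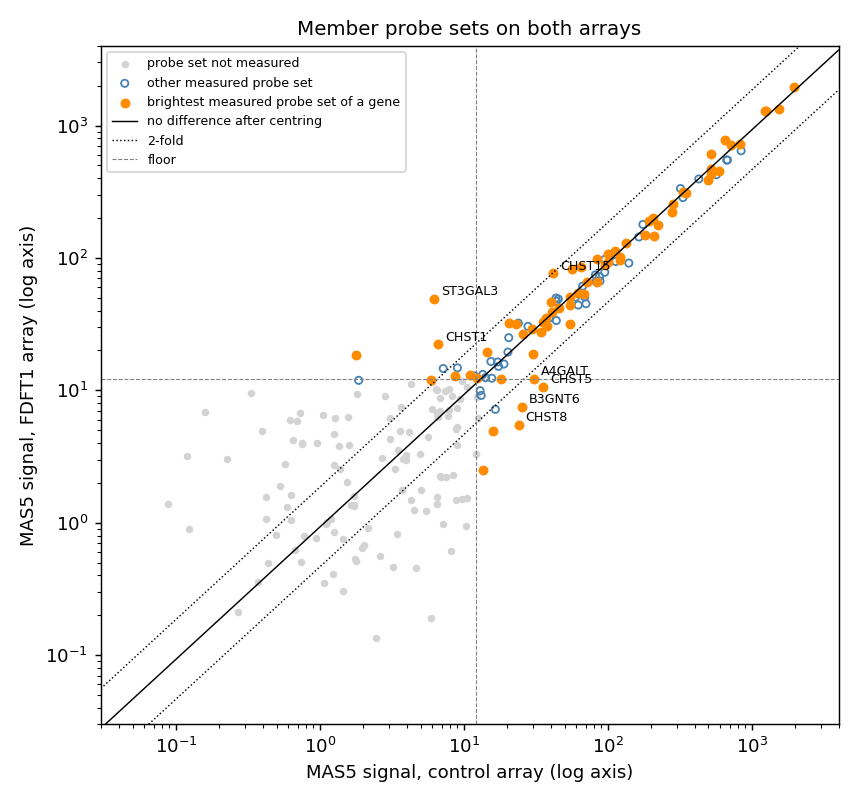
MAS5 signal of every member probe set on the FDFT1 array (vertical, log axis) and the control array (horizontal, log axis). The solid line is no difference after centring, dotted lines are 2-fold and dashed lines the floor of 12.2; every probe set beyond 2-fold had at least 1 signal under the floor except A4GALT (12.3 with FDFT1 and 30.5 with the control vector).

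The sialyltransferases cap chains with sialic acid. Of 19 such genes 11 were measured, 7 above 0 and 4 below, with a median of 0.12. All 6 ST3GAL genes, whose enzymes link sialic acid to terminal galactose, were measured, and 5 were above 0, with a median of 0.22. ST3GAL3, which sialylates N-acetyllactosamine chains on the way to sialyl Lewis epitopes, had a signal of 49.4 on the FDFT1 array and 6.2 on the control array. That is at least 4.20-fold higher against the floor (log2 difference 2.07, error 0.49). The value came from 1 of 7 ST3GAL3 probe sets. The other 6 were under the floor on both arrays, the brightest of them at 11.7 with FDFT1 and 9.7 with the control vector.

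ST3GAL6, which acts on similar chains, was at 0.54 (19.6 with FDFT1 and 14.4 with the control vector), and its other measured probe set was also above 0, at 0.33. ST3GAL5 makes the ganglioside GM3, the parent of most gangliosides. Its signal was 46.6 with FDFT1 and 40.0 with the control vector, a difference of 0.33 with an error of 0.30. ST3GAL2, a sialyltransferase of O-glycans and gangliosides, was at 0.12 (113 and 112) on its brightest probe set. Its other 3 measured probe sets lay at 0.39, 0.30 and -0.29, which spans both directions. ST3GAL1, the main sialyltransferase of core 1 O-glycans, was at the floor (12.7 with FDFT1 and 8.7 with the control vector). ST3GAL4 was at -0.005 (87.8 and 94.8).

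ST6GAL1, which puts sialic acid on the lactosamine arms of N-glycans, was 1.59-fold higher. Its signal was 83.0 on the FDFT1 array and 56.2 on the control array (log2 difference 0.67, error 0.30). This rested on 1 of 3 probe sets, since the other 2 were under the floor on both arrays. ST6GAL2 was not measured. In the ST6GALNAC class, whose enzymes sialylate N-acetylgalactosamine, 3 of 6 genes were measured, all within 1 error of 0. ST6GALNAC4 was at -0.18 (148 with FDFT1 and 181 with the control vector), with its 3 measured probe sets below 0 and the other, of 4, under the floor. ST6GALNAC3 was at 0.06 (29.0 and 29.9) and ST6GALNAC6 at -0.02 (65.8 and 72.0). Of the 5 ST8SIA genes, which add sialic acid onto sialic acid, only ST8SIA5 was measured, at -0.33 with its FDFT1 signal under the floor (4.9 and 15.9). Its other measured probe set was at 0.07 (13.2 with FDFT1 and 13.5 with the control vector), with both signals above the floor.

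Of the 15 carbohydrate sulfotransferase genes 13 were measured, 4 above 0 and 9 below, with a median of -0.08. All 7 enzymes of chondroitin and dermatan were measured, and 6 of them were below 0, with a median of -0.16. CHST12, a chondroitin sulfotransferase, was the lowest at -0.40 (146 with FDFT1 and 208 with the control vector, error 0.22), while its other probe set was at 0.22 (49.0 and 45.3). CHST7 was at -0.24, CHST13 at -0.20 and CHST3 at -0.16 with both measured probe sets, of 3, below 0. The chondroitin sulfotransferase CHST11 was at -0.08 and CHST14, the dermatan enzyme, at -0.0002. These 6 differences were under 2 errors each.

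CHST15 was the exception among them. It adds a further sulfate to chondroitin units that are already sulfated, giving chondroitin sulfate E. Its signal was 76.5 with FDFT1 and 41.5 with the control vector, which is 1.98-fold higher (log2 difference 0.99, error 0.30). Both signals were above the floor, unlike those of ST3GAL3 and CHST5. CHST15 had 1 other probe set, under the floor on both arrays.

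The remaining sulfotransferases act on keratan, N-glycans and hormone glycans. CHST5, which sulfates N-acetylglucosamine, had a signal of 10.6 with FDFT1 and 35.3 with the control vector. That is at least 2.79-fold lower (log2 difference -1.48, error 0.49). Its other probe set was also lower, at -0.39 (7.2 with FDFT1 and 16.5 with the control vector). Both are of the _x_at kind, whose probes can match related transcripts, and CHST6 lies next to CHST5 on chromosome 16. CHST6, the keratan sulfate enzyme of the cornea, was at 0.05 on its own probe set (39.2 and 40.7).

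CHST8, which sulfates the glycans of pituitary hormones, was at least 1.89-fold lower, with a signal of 5.5 on the FDFT1 array and 24.0 on the control array. CHST1, a keratan sulfate enzyme, lay the other way at 0.93 (22.3 with FDFT1 and 6.6 with the control vector), at least 1.90-fold higher. Its other probe set was under the floor after centring, at 8.9 and 12.2. CHST2 was at 0.0004 (32.7 and 35.2). CHST10, the sulfotransferase of the HNK-1 epitope, was at -0.03 (257 and 282, error 0.22).

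Among the chain-extending B4GALT, B3GALT and B3GNT enzymes no gene was past 2-fold. All 7 B4GALT genes were measured, with a range of -0.28 to 0.50 and a median of 0.06 that became -0.05 on uncentred values. B4GALT5 and B4GALT6 make lactosylceramide, the core of most glycosphingolipids. B4GALT6 was at 0.50 (85.8 with FDFT1 and 65.1 with the control vector, error 0.30) on its brightest probe set, while the other measured one, of 4 in all, was at -0.08. B4GALT5 was at 0.16 (1293 and 1249) on the brighter of its probe sets and at -0.28 (646 and 843) on the dimmer. The lowest was B4GALT3 at -0.28 (454 and 595, error 0.16), which has 1 measured probe set. B4GALT1, the main galactosyltransferase of N-glycan arms, was at -0.24 (221 and 280), and of its other 5 probe sets 1 was measured, at 0.21. B4GALT7, which adds galactose to the linker of glycosaminoglycans, was at -0.22 (97.0 and 122) with the other probe set at 0.14. B4GALT2 and B4GALT4 were at 0.06 and 0.08.

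A4GALT makes the glycolipid Gb3, the Pk blood group antigen and Shiga toxin receptor. Its only probe set had a signal of 12.3 on the FDFT1 array and 30.5 on the control array, 2.31-fold lower (log2 difference -1.21, error 0.49). The FDFT1 signal was just above the floor.

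Of 8 B3GNT genes 4 were measured. B3GNT2, the main enzyme of polylactosamine, was at 0.32 (606 with FDFT1 and 523 with the control vector, error 0.16), and its other measured probe set, of 3 in all, was at -0.11. B3GNT6, the core 3 synthase of mucin O-glycans, had a signal of 7.5 with FDFT1 and 25.2 with the control vector. It was at least 1.99-fold lower (log2 difference -0.99, error 0.49), just short of 2-fold. B3GNT4 was at 0.04 (35.3 and 36.9) and B3GNT9 at -0.20 (30.7 and 38.0). B3GALT6, another enzyme of the glycosaminoglycan linker, was the only B3GALT gene measured, at -0.15 (433 and 519) with a like value of -0.17 on its other measured probe set, of 3 in all.

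The GALNT enzymes of O-glycans differ in the peptides they act on. Of 17 genes 13 were measured, 6 above 0 and 7 below, with a median of -0.05 and none past 2-fold. GALNT11 was at 0.38 on its 1 probe set (783 with FDFT1 and 647 with the control vector, error 0.16), the only member with a mean log2 signal above 7 beyond 2 errors. GALNT18 was the lowest at -0.67 (31.6 and 54.2, error 0.30), and GALNT17 was at -0.59 (18.8 and 30.3, error 0.49). GALNT9 was the highest at 0.65 (18.5 with FDFT1 and 1.8 with the control vector, the second under the floor).

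GALNT1 and GALNT2, the broadly expressed starters, each had 4 measured probe sets. GALNT2 was at -0.23 (391 with FDFT1 and 494 with the control vector, error 0.22), with 3 of 4 probe sets below 0, from -0.50 to 0.13. GALNT1 was at -0.07 (731 and 829), with a range of -0.19 to 0.17. GALNT6, an O-glycan starter studied in cancers, was at -0.24 (53.9 and 68.6) with both probe sets below 0. GALNT7 was at 0.11 with both above, and GALNT12 at 0.34 with its other probe set at -0.06. GALNT10 and GALNT14 were at 0.08 and -0.05. GALNT3 was at 0.02 (11.9 with FDFT1 and 5.9 with the control vector) and GALNT16 at -0.09 (2.5 and 13.5). Each of GALNT3 and GALNT16 had 1 signal under the floor after centring. Without a floor, GALNT3 was at least 2-fold higher and GALNT16 at least 2-fold lower.

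All 3 measured GCNT genes, which branch O-glycans and lactosamine chains, were below 0, with a median of -0.22 and each within 1 error. GCNT2, the I-branching enzyme, was at -0.12 (1326 with FDFT1 and 1548 with the control vector) and -0.13 on its other probe set. GCNT1, the core 2 enzyme, was at -0.22 (27.6 and 34.5), but its other probe set was at 0.54. GCNT7 was at -0.45 (12.2 and 17.96, error 0.49).

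The fucosyltransferases were mostly below the floor, with 4 of 9 measured. FUT8, which adds the core fucose of N-glycans, was at -0.21 (179 with FDFT1 and 223 with the control vector, error 0.22), with both probe sets below 0. FUT4, which makes Lewis x, was at 0.19 (107 and 100) on 1 probe set and at -0.54 (45.1 and 70.4) on its dimmer one. FUT6, a plasma and Lewis enzyme, was at 0.75 (32.1 and 20.5, error 0.49). Of its 8 probe sets 5 were measured, 4 above 0, and the other values ran from -0.23 to 0.32. FUT6 lies in a row with FUT3 and FUT5 on chromosome 19. The probe set of the 0.75 value is not of the _x_at kind, while 6 of the other 7 are, so these FUT6 values are uncertain. FUT5 was at the floor (13.1 and 11.02).

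The MGAT enzymes, which branch N-glycans, had 7 of 9 genes measured. They ranged from -0.07 to 0.56, with a median of 0.03 that became -0.08 on uncentred values. MGAT1, which opens the path to hybrid and complex N-glycans, was at 0.03 (317 with FDFT1 and 335 with the control vector). MGAT2, the next step, was at 0.17 (1287 and 1232, error 0.16), with 2 of 3 probe sets above 0. MGAT4B was at 0.10 (1942 and 1956) on 1 probe set and at -0.31 (426 and 568) on its dimmer one. MGAT5, whose branches carry polylactosamine and have been studied in metastasis, was at -0.07 (312 and 352, error 0.22). MGAT3, which adds the bisecting sugar, was the highest at 0.56 (31.7 and 23.2, error 0.49), with -0.04 on its other measured probe set, of 3 in all. MGAT4A and MGAT5B were at 0.004 and -0.02. The 2 measured non-coding members, FUT8-AS1 and GALNT7-DT, were at 0.16 (26.6 and 25.6) and 0.07 (12.4 and 12.4).

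Probe sets of 1 member often disagreed in direction. Of 32 members with at least 2 measured probe sets, 22 had values on both sides of 0, 8 had all below and 2, ST3GAL6 and GALNT7, had all above. The median gap between the highest and the lowest probe set of a gene was 0.38, and the largest was 1.09 for CHST5. The other 34 measured members rested on 1 probe set. Directions were not counted over all genes, so these counts do not show a trait of the members. Within 1 error of 0 lay 63.6% of measured members and 66.9% of all measured genes.

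**Figure D4:**
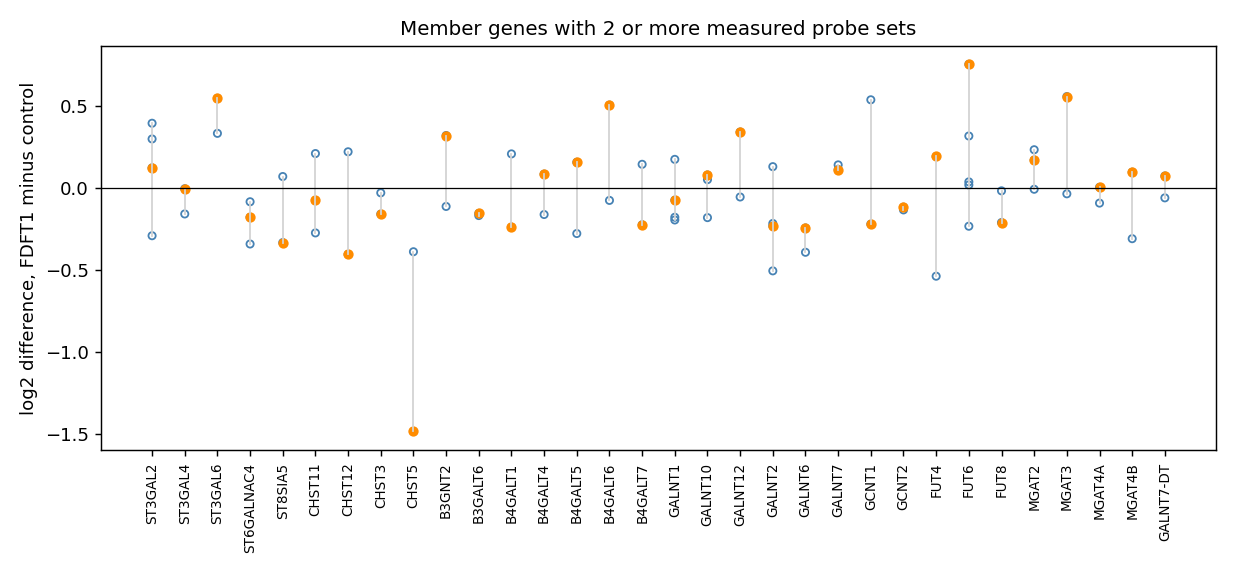
Centred log2 difference (FDFT1 minus control) of each measured probe set for the 32 members with at least 2. Filled points are the brightest probe set of each gene and open points the others; 22 genes straddle 0.

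The members under the floor on both arrays were 36. They include 4 of 5 ST8SIA genes (ST8SIA1 to ST8SIA4), the B3GALT genes other than B3GALT6, FUT1, FUT2, FUT3, FUT7 and FUT9, and ST6GALNAC1, ST6GALNAC2 and ST6GALNAC5. GCNT3, the mucin-type branching enzyme, and B3GNT3, which extends core 1, were also under it. So were B3GNT5, B3GNT7, B3GNT8, CHST4, CHST9, GALNT5, GALNT8, GALNT13, GALNT15, GCNT4, MGAT4C, MGAT4D and ST6GAL2, and 5 of the 7 non-coding or pseudogene transcripts. A signal under the floor is not shown to be absent, since the MAS5 detection calls were not used here.

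The genes that supply and surround these enzymes were described by 6 lists. No gene of these lists was past 2-fold, a count to be read against 0.571% and 0.578% of all measured genes. At 1.5-fold 1 was higher (DSEL) and 1 lower (GMPPA), against 3.91% and 3.28% of all measured genes. The 64 measured genes had a median of -0.03, and 28 of them lay above 0. Of 18 genes for sugar nucleotides and the sulfate donor, 9 were above 0 and 9 below. GMPPA, a regulatory subunit of GDP-mannose synthesis, was the lowest at -0.72 (144 with FDFT1 and 256 with the control vector, error 0.22). PAPSS2, which makes the sulfate donor, was the highest at 0.44 (63.2 and 50.1), with 1 of 3 measured probe sets above 0. CMAS, which activates sialic acid, was at 0.01 (612 and 655).

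Among 11 Golgi sugar transporters and related carriers, 7 were above 0 and 4 below. SLC35C1, the GDP-fucose transporter, was at 0.38 (66.8 with FDFT1 and 55.4 with the control vector) and SLC35A4 at -0.39 (460 and 650, error 0.16). Of 8 N-glycan trimming enzymes 5 were below 0. GANAB, the catalytic subunit of glucosidase II, was at -0.52 (896 and 1381, error 0.16) with both measured probe sets below 0, and MAN2A1, a Golgi mannosidase, at 0.18. In the list of core 1 and other O-glycan enzymes, 3 of 9 measured genes were above 0. C1GALT1, the core 1 synthase, was at 0.36 (309 and 258, error 0.22). POMT2, a protein O-mannosyltransferase, was at -0.58 (74.6 and 120, error 0.30), with 1 of 2 measured probe sets above 0. In the glycosaminoglycan list, 5 of 15 measured genes were above 0, from DSEL, a dermatan sulfate epimerase, at 0.80 (23.6 and 14.7, error 0.49) to B3GAT3, a linker enzyme, at -0.38 (97.1 and 136). The sialidase NEU3 was at -0.32 (124 and 166) and NEU4 at 0.52 (16.9 and 6.97, the control value under the floor).

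The arrays carried 54675 probe sets each, with median signals of 12.1 on the FDFT1 array and 12.3 on the control array. FDFT1 itself was not analysed here. The labels give a type II alveolar cell type. Of 8 markers of that type 5 were measured. On the FDFT1 and control arrays, SFTPC had signals of 16.9 and 29.3 and SFTPB 35.3 and 32.0. ABCA3 had 55.6 and 79.9, LAMP3 58.8 and 53.0, and NKX2-1 29.3 and 31.1 on the same arrays. SFTPD, SLC34A2 and NAPSA were under the floor on both. Of 10 markers of blood, stromal, vessel and airway cells 6 were measured. Their log2 differences were 0.58 for HBB, 0.45 for COL1A1 (1 of 3 measured probe sets above 0), 0.41 for PECAM1, 0.18 for CD3E, -0.15 for DCN and -0.21 for CD79A, while PTPRC, FOXJ1, SCGB1A1 and KRT5 were under the floor on both. Their part in the differences was not tested.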

How the data were processed

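RNA of 2 CL1-0 samples was hybridised to Affymetrix arrays, 1 array for FDFT1 and 1 for the control vector, grouped by sample titles. The deposited values are signal intensities on a linear scale, made with MAS5 per the submitters' processing notes; its version and scaling target were not found in those notes. The number of arrays limits the precision.

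From these values, computed with Python 3.11.15, numpy 2.4.6, pandas 2.3.3 and statsmodels 0.14.6, the 62 control probe sets were removed. Log2 signals were centred on the median difference (-0.11, FDFT1 minus control; shared equally between the arrays) of probe sets at or above the floor of 12.2 on both arrays, then lower values were set to the floor, so a fold against a floored value is a lower bound. Signals in the text are as deposited, whereas differences and folds are centred. The platform annotation gave 1 gene for 41091 of 54613 probe sets; the others were not used. All 229 member probe sets matched RefSeq by gene ID.

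The rule for named genes took members at least 2-fold different, the highest, lowest and brightest of each class, all of classes with up to 4 measured genes, members with probe sets of opposite sign at least 1 apart (0 found), and the extremes of each pathway list. Other members, and CMAS, were named after their values were seen. The members and lists were chosen with earlier results of these data known. The steps were tested on simulated data. Changes were placed there only in genes with a probe set of mean log2 signal above 7. The members past 2-fold have no such probe set, so the simulation does not cover changes in genes as dim.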

Additional observations from a re-analysis of the deposited data

How the results depend on the processing

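With 1 array per group, no replicate can be left out and no replicate error exists. ST3GAL3 was the 1 member at least 2-fold higher as deposited, after quantile or loess scaling, with probe set means, without _x_at and _s_at probe sets, and at 3-fold. Its 1 measured probe set is neither _x_at nor _s_at, so probe set means and that removal could not change its value. Without a floor 4 members were higher and 5 lower, beside 509 and 326 of all 12968 measured genes. With the floor at the 75th percentile (99.4) 0 and 0 of 27 measured members were past 2-fold, beside 3 and 2 of 8061 genes. At 1.5-fold 6 members were higher and 6 lower, against 3.91% and 3.28% of all measured genes. Against 2 in the main setting, 3 members were at least 2-fold lower as deposited and after quantile or loess scaling, B3GNT6 joining CHST5 and A4GALT. Over all genes 75 were lower in the main setting, 109 as deposited, 84 after quantile and 89 after loess scaling. Genes at least 2-fold higher numbered 74, 48, 69 and 64 in the same order. With probe set means, and without _x_at and _s_at probe sets, 1 was lower, A4GALT, whose only probe set could not change under either setting. Over all genes 58 of 12968 and 63 of 10192 were lower in these settings. Both CHST5 probe sets are of the _x_at kind, so CHST5 had no value without them. At 3-fold 0 were lower. CHST5 was at -0.93 with probe set means.

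As deposited, the member median was -0.11, as was the median of all genes, with 21 members above 0 and 45 below. The MGAT and B4GALT medians were then -0.08 and -0.05, and the B4GALT median was also below 0 with the higher floor (-0.08) and with probe set means (-0.04), where the MGAT median was -0.02. As deposited the GALNT median was -0.15. With the higher floor, over fewer genes, it was 0.04 (7 genes), and the medians were -0.28 for the chondroitin and dermatan CHST genes (2), 0.32 for B3GNT (1) and -0.03 for FUT (2). The FUT median was 0.02 with probe set means. Without _x_at and _s_at probe sets, medians were -0.08 for those CHST genes, 0.03 for the other CHST genes (-0.01 in the main setting), 0.02 for ST6GALNAC (-0.02) and -0.60 for B3GNT (-0.08). Without a floor the ST3GAL median was 0.44, and without _x_at and _s_at probe sets 0.12. Some values could not move under some of these alternatives. A gene with both signals above the floor keeps its value without a floor. A gene with 1 measured probe set keeps its value with probe set means. Of 230 values of 37 members under these alternatives, such values included, 217 moved by less than the probe-set error and 13 by more. Among these, B4GALT5 (-0.06), FUT4 (-0.17) and MGAT4B (-0.11) were below 0 with probe set means, CHST12 was at 0.22 and ST3GAL2 at -0.29 without _x_at and _s_at probe sets. No member past 2-fold changed sign where it had a value; the cause of these shifts was not tested.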

Other observations

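Enzymes of the same families outside the symbol rule were also on the arrays. B4GALNT1, which makes the gangliosides GM2 and GD2, was at -0.03 on its brighter probe set (218 with FDFT1 and 239 with the control vector) and 0.34 on the other (79.2 and 67.2). B3GALNT2, which extends O-mannose glycans of dystroglycan, was at 0.08 (976 and 994). The 2 probe sets shared by GALNT4 and the read-through gene POC1B-GALNT4 were at -0.20 (523 and 647, error 0.16) and -0.43 (38.6 and 55.8, error 0.30). B3GALNT1 was under the floor on all of its probe sets on both arrays.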
